A study of Mus musculus with 6 samples.

Results

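The nuclear genes for subunits of respiratory complexes II, III and IV and of ATP synthase were examined in HK-2 cells, an immortalised line from human proximal tubule. The list was typed by name and holds 38 of the 39234 genes in the count table: 4 of complex II, 9 of complex III, 10 of complex IV and 15 of ATP synthase. These complexes sit in the inner mitochondrial membrane. Complex II passes electrons from succinate to ubiquinone, complex III passes them on to cytochrome c, and complex IV hands them to oxygen. Complexes III and IV pump protons, and ATP synthase makes ATP from the gradient; proximal tubule cells depend heavily on this supply for transport. Complexes III, IV and ATP synthase each combine nuclear subunits with subunits encoded in mitochondrial DNA, whereas complex II is entirely nuclear.

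RNA was sequenced from 3 control libraries (Cont) and 3 libraries with USAG-1 overexpression (USAG1_OE), all labelled HK2, proximal tubular epithelial cells and WT in genotype. By the study's methods, overexpression was by transient transfection of plasmid, so cells may differ in how much they received; what the control cells received is not given by the labels. The labels name mouse as the organism, although the line and the gene identifiers are human. Library totals ran from 41236194 to 48699471 counts. SOSTDC1, the gene of USAG-1, had 79, 80 and 60 counts in control and 5072, 3907 and 4438 counts in USAG-1-overexpressing libraries, and the groups were far apart. Its log2 fold change was 5.94 (SE 0.13, adjusted p = 6.96e-07, edgeR quasi-likelihood test, Benjamini-Hochberg-adjusted). Of the proximal tubule markers, LRP2 had 0 counts in all 6 libraries (3 counts would be 0.0616 to 0.0728 CPM, counting error only), and CUBN, AQP1 and HNF4A had too few counts to be tested. GGT1 had 4865, 5526 and 3628 counts in control and 7547, 5987 and 6812 counts in overexpressing libraries, and SLC34A1, SLC5A2 and ANPEP were tested at 7 to 154 counts. PAX8, KRT8, KRT18 and VIM were abundant, with PAX8 at 15861, 18014 and 16199 counts in control libraries.

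Control replicate 3 stood apart from the other controls. The summed level of the 38 genes was 3471, 3475 and 4261 CPM (counts relative to library size, scaled by TMM) in control replicates 1 to 3, and 3432, 3455 and 3628 CPM with USAG-1 overexpression. Control replicate 3 was the highest of the 6 libraries, and the other 2 controls lay within the range of the overexpression group. It was the highest library for 32 of the 38 genes and the lowest for 1 (UQCRB). Relative to the mean of control replicates 1 and 2 its median log2 ratio was 0.28 over the 38 genes and 0.031 over the 9742 genes at 10 CPM or more. Over genes with enough counts, chi-square per degree of freedom was 47.2 and 47.7 between control replicate 3 and the other controls, 6.87 between those and 8.13 to 8.90 within the overexpression group. Nothing in the labels says whether replicates are separate cultures, so p-values measure the spread between these libraries, which may be technical.

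**Figure D1:**
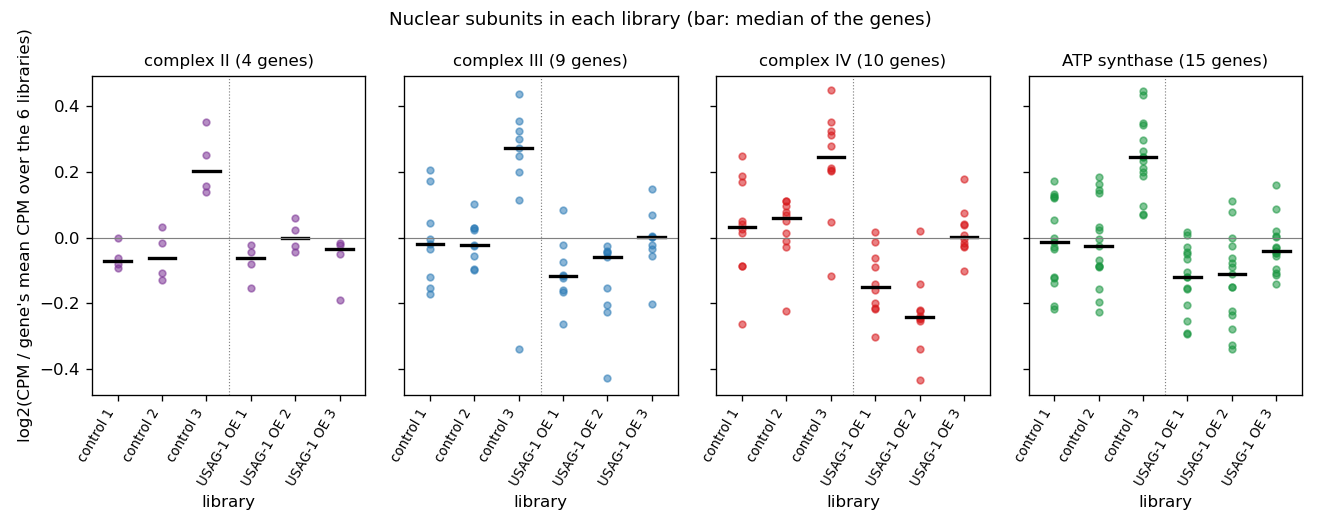
Level of each nuclear subunit gene in each library, as log2 of its CPM over its own mean in the 6 libraries, with 1 panel per complex, points for genes and black bars for the median of the genes (OE, overexpression). Control replicate 3 lies above the other libraries in all 4 panels, apart from a few genes such as UQCRB.

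With USAG-1 overexpression, 5 of the 38 genes were called lower, and this count changed with the libraries kept. All 38 genes passed the filter on low counts. By edgeR's quasi-likelihood test at a Benjamini-Hochberg-adjusted p under 0.05, 5 genes were lower (UQCRQ, COX7C, ATP5MG, ATP5ME and ATP5PF), which is 13.2% of 38; among the 18188 genes tested, 15.9% were called in either direction and 6.91% were called lower. None was called higher with edgeR, with DESeq2's Wald test or with limma-voom (0 each). At an unadjusted p under 0.05 (edgeR), 0 were higher and 14 lower, beside 2874 higher and 2678 lower among all 18188 genes tested. The log2 fold change was below 0 for 34 of the 38 genes, with a median of -0.15, beside 52.5% of genes below 0 and a median of -0.019 over all genes tested. Without control replicate 3, 25 of the 38 were below 0 and the median was -0.081. In that fit 7 of the 38 were called lower and 3 higher (COX5A, ATP5F1B and ATP5PB). Beside these, 2106 (11.2%) of the 18866 genes tested were called lower and 2985 of them higher. On leaving out overexpression replicate 1 or 2, 1 gene was called lower (ATP5MG), beside 3.16% and 2.67% of all genes in those fits. Without control replicate 1, or without control replicate 2, there were 3, beside 4.41% and 3.75% of all genes. The groups did not overlap, with overexpression lower, for 16 of the 38 genes, beside 18.1% of all genes tested. In bulk RNA, fewer cells of a type and less RNA per cell cannot be told apart.

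**Figure D2:**
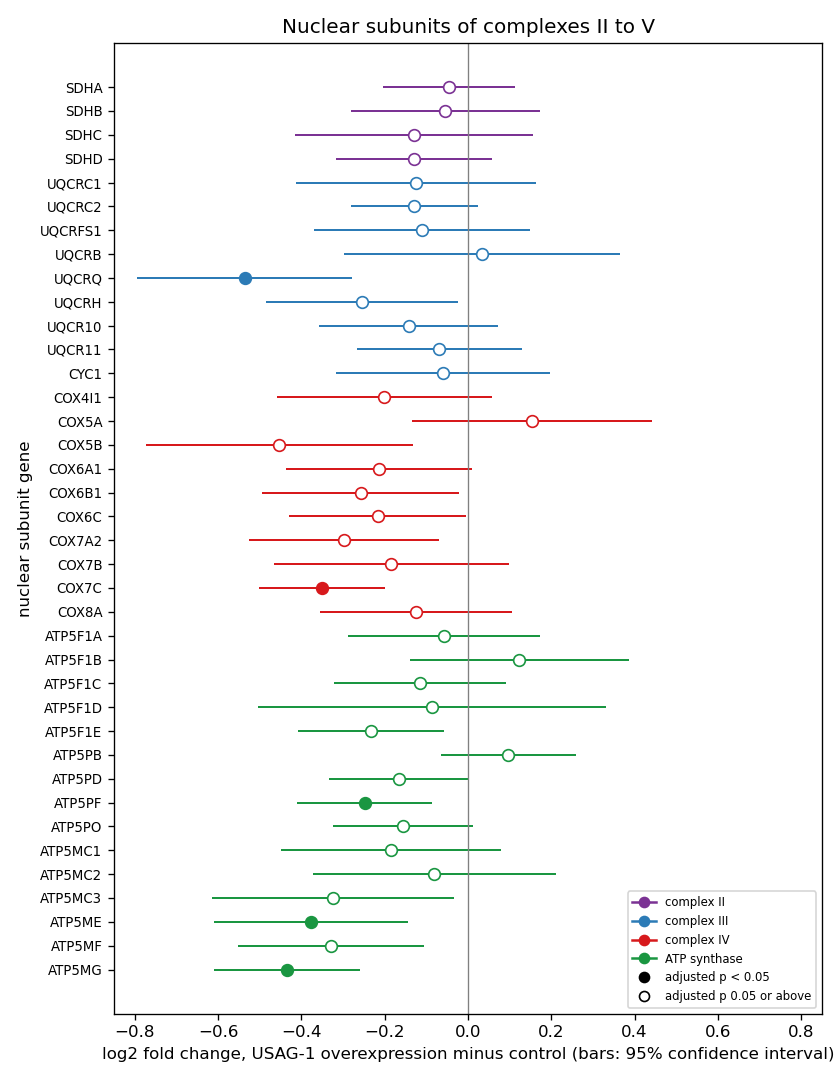
Log2 fold change of each of the 38 genes, USAG-1 overexpression minus control (n = 3 each), with 95% confidence intervals; colours mark the complexes and filled points an adjusted p under 0.05. The 5 filled points lie left of 0, and most other intervals cross 0.

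Complex II oxidises succinate in the tricarboxylic acid cycle. SDHA, the flavoprotein that holds the active site, had 122, 126 and 141 CPM in control and 124, 129.5 and 123 CPM in USAG-1-overexpressing libraries. SDHB, whose iron-sulfur clusters carry the electrons on, had 94.3, 93.2 and 119.6 CPM and 98.8, 97.5 and 99.3 CPM. For both genes the highest value was in control replicate 3 and the groups overlapped. SDHC, a membrane anchor that helps bind ubiquinone and haem, had 88.0, 85.1 and 119 CPM in control and 83.6, 91.4 and 91.5 CPM in overexpressing libraries. SDHD, the other anchor, had 58.4, 59.8 and 65.1 CPM and 55.3, 60.9 and 51.2 CPM, again with overlap. Log2 fold changes were -0.046 (SE 0.068) for SDHA, -0.055 (SE 0.098) for SDHB, -0.13 (SE 0.12) for SDHC and -0.13 (SE 0.081) for SDHD. None of the 4 was called by edgeR, DESeq2 or limma-voom (0 each), and 0 had an unadjusted p under 0.05. The 95% interval for SDHA ran from -0.20 to 0.11. The median of the complex was -0.092, and without control replicate 3 it was 0.034. SDHA was then at 0.022, SDHB at 0.078 and SDHC at 0.045, while SDHD stayed below 0, at -0.076. SDHA has 4 pseudogenes in the table that hold counts equal to 37.4% of its own, so reads could be split among them.

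In complex III the clearest difference was in UQCRQ, a small subunit that spans the membrane beside cytochrome b. UQCRQ (ENSG00000164405; chromosome 5, 132866630 to 132868847, hg38) had 23.5, 22.4 and 28.3 CPM in control and 17.4, 15.6 and 18.2 CPM in USAG-1-overexpressing libraries. Each overexpressing library lay below each control. Group levels were 24.8 ± 3.13 CPM in control cells and 17.1 ± 1.35 CPM in USAG-1-overexpressing cells (SD, n = 3 each). The log2 fold change was -0.54 (SE 0.11, adjusted p = 0.0156, edgeR quasi-likelihood test, Benjamini-Hochberg-adjusted), a change of -31.1%. It was -0.42 without control replicate 3, and it lost the call without USAG-1 overexpression replicate 1 (adjusted p = 0.0619, edgeR) or 2 (adjusted p = 0.0783, edgeR). Centring on genes of like genomic span, chosen after seeing the data, gave -0.35. UQCRH, the acidic hinge protein that helps cytochrome c dock at cytochrome c1, had 86.0, 87.7 and 108 CPM and 77.2, 73.8 and 85.0 CPM. These groups also did not overlap, but the log2 fold change of -0.25 (SE 0.10) was not called (adjusted p = 0.125, edgeR quasi-likelihood test, Benjamini-Hochberg-adjusted). UQCRHL, a near copy of UQCRH, could share its reads.

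The nuclear electron carriers of complex III, UQCRFS1 and CYC1, did not pass the test. UQCRFS1, the Rieske iron-sulfur protein, had 46.5, 50.8 and 63.6 CPM in control and 47.6, 49.6 and 51.9 CPM in overexpressing libraries. CYC1, cytochrome c1, had 113, 115 and 148 CPM and 113, 119 and 129 CPM. In both, control replicate 3 was highest and the groups overlapped. Their log2 fold changes were -0.11 (SE 0.11) and -0.060 (SE 0.11), and without control replicate 3 they were 0.036 and 0.086. The core proteins UQCRC1 and UQCRC2, which resemble processing peptidases, gave -0.13 (SE 0.12) and -0.13 (SE 0.066). UQCRC2 was lower in every overexpressing library than in every control without being called (adjusted p = 0.228, edgeR quasi-likelihood test, Benjamini-Hochberg-adjusted). Among the small subunits, UQCR10 gave -0.14 (SE 0.093) and UQCR11 -0.069 (SE 0.085). UQCRB, which lies near the ubiquinone site, was the only gene of the complex above 0, at 0.034 (SE 0.14). Its lowest library was control replicate 3, and it was -0.096 without that library and -0.033 without USAG-1 overexpression replicate 3. Of the 9 genes, 8 were below 0, with a median of -0.13; without control replicate 3 there were 5, with a median of -0.038, and leaving out control replicate 1 gave -0.19, leaving out USAG-1 overexpression replicate 1 gave -0.080.

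In complex IV, cytochrome c oxidase, COX7C was called lower. COX7C (ENSG00000127184; chromosome 5, 86617928 to 86620962), a short single-pass membrane subunit, had 71.0, 68.2 and 73.2 CPM in control and 54.3, 53.4 and 58.9 CPM in USAG-1-overexpressing libraries. Control replicate 3 did not stand apart here, and the groups did not overlap. The log2 fold change was -0.35 (SE 0.065, adjusted p = 0.00986, edgeR quasi-likelihood test, Benjamini-Hochberg-adjusted), from 70.8 ± 2.49 CPM in control cells and 55.5 ± 2.98 CPM in USAG-1-overexpressing cells (SD, n = 3 each). Without USAG-1 overexpression replicate 1 or 2 the call was lost (adjusted p = 0.0604 and 0.0623, edgeR), and centring on genomic span gave -0.20. COX5B, a matrix-side subunit that binds zinc, had 26.4, 27.2 and 34.7 CPM and 20.6, 18.9 and 25.0 CPM. The groups did not overlap and its change was larger, -0.45 (SE 0.14), but so was its error, and it fell just short of the threshold (adjusted p = 0.0612, edgeR quasi-likelihood test, Benjamini-Hochberg-adjusted). DESeq2's Wald test called it (adjusted p = 0.0152).

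COX4I1, a subunit through which ATP can regulate the enzyme, had 182, 191 and 246 CPM in control and 173, 175 and 191 CPM in overexpressing libraries. The groups overlapped, and the difference of -0.20 (SE 0.11) shrank to -0.049 without control replicate 3. EMC8, on the other strand, overlaps it with counts equal to 19.5% of its own, and whether the counting used strand is not given in the sources used here. COX5A, which sits on the matrix side with COX4I1, was the only gene of this complex above 0, at 0.15 (SE 0.12). It had 38.9, 40.0 and 53.6 CPM in control and 47.2, 47.3 and 52.8 CPM in overexpressing libraries. Control replicates 1 and 2 lay below each overexpressing library, and control replicate 3 lay above each. Without control replicate 3, COX5A was called higher, at 0.32 (adjusted p = 0.00638, edgeR quasi-likelihood test, Benjamini-Hochberg-adjusted).

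The other complex IV genes encode small subunits around the catalytic core. COX7A2, found at the dimer and supercomplex contacts, gave -0.30 (SE 0.098) with groups that did not overlap (adjusted p = 0.0776, edgeR quasi-likelihood test, Benjamini-Hochberg-adjusted). COX6B1, on the intermembrane-space face, gave -0.26 (SE 0.10), and COX6C gave -0.22 (SE 0.092), both without overlap and without a call. COX6A1 gave -0.21 (SE 0.096), COX7B -0.18 (SE 0.12) and COX8A -0.13 (SE 0.10), all with overlapping groups. VPS13B and 1 more gene overlap COX6C and hold counts equal to 79.4% of its own, which makes its value uncertain. For the 10 genes the median was -0.22, and -0.17 without control replicate 3, with 9 below 0 in either case. Summed over the 10 genes, the level was 710.4, 709.6 and 836 CPM in control and 642, 607 and 705 CPM in overexpressing libraries, so each overexpressing library was below each control.

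ATP synthase held the other 3 called genes. ATP5MG (ENSG00000167283; chromosome 11, 118401346 to 118433278), subunit g, is 1 of the small membrane proteins by which ATP synthase pairs into dimers and bends the cristae. It had 71.2, 71.8 and 74.8 CPM in control and 51.6, 50.4 and 59.2 CPM in USAG-1-overexpressing libraries. The controls lay close together and above all of the other group. Its log2 fold change was -0.43 (SE 0.075, adjusted p = 0.00738, edgeR quasi-likelihood test, Benjamini-Hochberg-adjusted), and it was called in all 14 alternative tests run, with the highest adjusted p at 0.049 (edgeR, without USAG-1 overexpression replicate 2).

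ATP5ME (ENSG00000169020; chromosome 4, 672436 to 674330), subunit e and a partner of subunit g, had 16.6, 17.0 and 17.9 CPM in control and 12.4, 12.5 and 14.7 CPM in overexpressing libraries. The groups did not overlap. The log2 fold change was -0.38 (SE 0.10, adjusted p = 0.0388, edgeR quasi-likelihood test, Benjamini-Hochberg-adjusted). ATP5ME was called in 8 of the 14 alternative tests. The call was lost on leaving out control replicate 1, control replicate 2, or the overexpression libraries 1 or 2 in turn (adjusted p = 0.0749, 0.0981, 0.145 and 0.147, edgeR). It was also lost without the filter on low counts and with a replicate block. Centring on genomic span gave -0.16 for ATP5ME. MYL5 overlaps it with counts equal to 35.2% of its own. ATP5MF, subunit f of the same region, gave -0.33 (SE 0.096) with groups that did not overlap and lay just outside the threshold (adjusted p = 0.0528, edgeR quasi-likelihood test, Benjamini-Hochberg-adjusted); without control replicate 3 it was called (adjusted p = 0.0497, edgeR). CPSF4 and the readthrough gene ATP5MF-PTCD1 overlap it with counts equal to 56.4% of its own. The summed level of ATP5ME, ATP5MF and ATP5MG was 181, 176 and 198 CPM in control and 141, 130.3 and 156 CPM in overexpressing libraries, a ratio of means of 0.772, and 0.799 without control replicate 3. Their median log2 fold change was -0.38, and -0.34 without control replicate 3.

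The peripheral stalk holds the catalytic head still against the turning rotor. ATP5PF (ENSG00000154723; chromosome 21, 25716503 to 25735646), coupling factor 6 in this stalk, had 36.2, 36.5 and 35.6 CPM in control and 30.9, 28.3 and 32.0 CPM in overexpressing libraries. The groups did not overlap and the controls lay close together. The log2 fold change was -0.25 (SE 0.070, adjusted p = 0.0464, edgeR quasi-likelihood test, Benjamini-Hochberg-adjusted), the called value nearest to the threshold. It was not called in 10 of the 14 alternative tests, among them each fit without a library other than control replicate 3 (adjusted p = 0.12, 0.127, 0.128, 0.194 and 0.0893, edgeR). JAM2 and GABPA overlap ATP5PF with counts equal to 123% of its own, so its level is uncertain. Of the rest of the stalk, ATP5PO, the oligomycin sensitivity protein at its tip, gave -0.16 (SE 0.072), and ATP5PD, subunit d, gave -0.17 (SE 0.072). ATP5PB, the long subunit b, gave 0.096 (SE 0.070), and without control replicate 3 it was called higher at 0.17 (adjusted p = 0.021, edgeR quasi-likelihood test, Benjamini-Hochberg-adjusted). WDR77 overlaps ATP5PB, and KCTD2 overlaps ATP5PD, with counts equal to 74.2% and 75.6% of their own.

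The catalytic head gave no call by edgeR with all libraries. ATP5F1A, the alpha subunit, had 266, 272 and 347 CPM in control and 281, 289 and 281 CPM in USAG-1-overexpressing libraries. ATP5F1B, the beta subunit that makes the ATP, had 573, 569 and 772 CPM and 674, 703 and 708 CPM. In both genes the overexpressing libraries lay above control replicates 1 and 2 and below control replicate 3. ATP5F1A gave -0.057 (SE 0.099) with all libraries and 0.082 without control replicate 3. ATP5F1B gave 0.12 (SE 0.11), and without control replicate 3 it was called higher at 0.29 (adjusted p = 0.000321, edgeR quasi-likelihood test, Benjamini-Hochberg-adjusted). In the central stalk that turns inside the head, ATP5F1C, subunit gamma, gave -0.11 (SE 0.089) and ATP5F1D, subunit delta, -0.086 (SE 0.18). ATP5F1E, subunit epsilon, gave -0.23 (SE 0.075) with groups that did not overlap (adjusted p = 0.0726, edgeR quasi-likelihood test, Benjamini-Hochberg-adjusted), and was called lower without control replicate 3 at -0.25 (adjusted p = 0.0342, edgeR). The 5 head genes had a median of -0.086, and 0.082 without control replicate 3. None was called by edgeR or limma-voom (0 each), DESeq2's Wald test called 1 (ATP5F1E), and 1 had an unadjusted p under 0.05.

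ATP5MC1, ATP5MC2 and ATP5MC3 encode the same mature subunit c, the proton-carrying ring of the rotor, with different import sequences. They gave -0.18 (SE 0.11), -0.081 (SE 0.13) and -0.32 (SE 0.13). The groups did not overlap for ATP5MC3 alone. All were highest in control replicate 3, and without it they were -0.030, 0.10 and -0.15. No test called any of them with edgeR, DESeq2 or limma-voom (0 each), and 1 had an unadjusted p under 0.05. For the 15 ATP synthase genes, 13 were below 0 and the median was -0.17; without control replicate 3, 10 were below 0 and the median was -0.085.

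The mitochondrially encoded partners in the same complexes differed far more in size. All 6 were called lower, with a median log2 fold change of -2.0. MT-CYB, the cytochrome b of complex III, had 2851, 2789 and 2677 CPM in control and 672, 705 and 678 CPM in overexpressing libraries, a ratio of means of 0.247, beside 0.921 for the 9 nuclear genes of complex III. For complex IV, MT-CO1, MT-CO2 and MT-CO3, the catalytic core, gave a ratio of 0.324 beside 0.866 for its nuclear genes. For ATP synthase, the mitochondrial genes gave 0.247 beside 0.972. The 15 nuclear genes of ATP synthase summed to 1733, 1729 and 2182 CPM in control and 1789, 1829 and 1870 CPM in overexpressing libraries, so that without control replicate 3 each overexpressing library lay above each control. Without that library the ratios within ATP synthase were 1.13 for the head genes, 1.01 for the peripheral stalk and 0.996 for the subunit c genes. For ATP5ME, ATP5MF and ATP5MG the ratio was 0.799. ATP5F1B, in the head, held the most counts of the 15 genes. By complex, the nuclear ratios without control replicate 3 were 0.981 for complex III, 0.917 for complex IV and 1.06 for ATP synthase, and the mitochondrial ratios 0.243, 0.324 and 0.237. Log2 fold changes of the 5 with the smallest p were -1.99 (SE 0.049) for MT-CO3, -2.02 (SE 0.051) for MT-CYB, -1.46 (SE 0.043) for MT-CO1, -1.75 (SE 0.054) for MT-CO2 and -2.03 (SE 0.067) for MT-ATP8. Control replicate 3 was the lowest control for MT-CYB and for the ATP synthase pair. The difference between these nuclear and mitochondrial values was not tested.

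Genes around the complexes were tested in the same way, beside 6.91% called lower among all genes. Of 37 nuclear subunits of complex I, 3 were lower, NADH dehydrogenase subunits NDUFA2 (-0.58, SE 0.11), NDUFB6 (-0.52, SE 0.095) and NDUFA13 (-0.43, SE 0.11), and the median was -0.19; NDUFB6 lost its call without USAG-1 overexpression replicate 2, and NDUFA13 on leaving out control replicate 2 or any overexpression replicate. Without control replicate 3 the complex I median was -0.11 and 26 rather than 32 genes were below 0. In that fit 4 were called lower and 2 higher, NDUFA9 (0.21) and NDUFS8 (0.26), both named after their values were seen. Of the 18866 genes tested there, 11.2% were called lower and 2985 genes were called higher. Among other isoforms and accessory proteins, 1 of 9 tested was lower, ATP5MJ, a small ATP synthase protein (-0.43, SE 0.091), a call lost on leaving out control replicate 1 or overexpression replicate 2 or 3; COX4I2 and COX7B2 were not analysed here. Of 7 assembly factors of complex III, 2 were lower: TTC19 (-0.60, SE 0.069), which helps remove fragments of the Rieske protein, and UQCC2 (-0.49, SE 0.093), which aids the making of cytochrome b. Both kept their calls with each library left out. The median of the 7 was -0.090. It was 0.013 without control replicate 3, with 3 of the 7 below 0, and -0.36 without USAG-1 overexpression replicate 3. Of 26 for complex IV, 3 were lower, COA5 (-0.66, SE 0.15), COX19 (-0.36, SE 0.085) and SCO1 (-0.30, SE 0.075), the last a copper carrier. Leaving out control replicate 1 or any overexpression replicate gave 0 calls. Leaving out control replicate 2 gave 1, of another gene, COX20 (-1.34, named after its values were seen), beside 3.75% of all genes called lower. With all libraries COX20 was at -1.02 and not called (adjusted p = 0.109, edgeR quasi-likelihood test). Without control replicate 3, 4 were called lower, beside 11.2% of all genes: COA5, COX19, SCO1 and COA1 (-0.16, also named after its values were seen). The median of the 26 was -0.13, and -0.019 without control replicate 3. For complex II, none of 4 was called (edgeR, DESeq2 and limma-voom 0 each, 0 at an unadjusted p under 0.05), with SDHAF2 at -0.12 (SE 0.092) and SDHAF4 at -0.24 (SE 0.26); SDHAF1 and SDHAF3 lay above 0, and the median was -0.039, with a library left out from -0.093 (USAG-1 overexpression replicate 3) to 0.031 (control replicate 2). For ATP synthase, none of 5 was called either (0 by each tool, 1 at an unadjusted p under 0.05), with TMEM242 at -0.28 (SE 0.095) and TMEM70 at -0.14 (SE 0.064). Of 10 transcription factors and coactivators of respiratory genes, 1 was called higher and 0 lower, beside 1628 called higher among all 18188 genes tested. The gene was PPARGC1A, a coactivator of mitochondrial biogenesis (0.64, SE 0.13). PPARGC1A lost its call when overexpression library 1 or 3 was left out. Log2 fold changes of the 10 genes had a median of 0.065.

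Of 79 cytosolic ribosomal protein genes 29 were lower, beside 6.91% of all genes, the 5 with the smallest p being RPS7 (-0.46, SE 0.063), RPS15A (-0.47, SE 0.071), RPL34 (-0.34, SE 0.057), RPL9 (-0.48, SE 0.087) and RPL31 (-0.37, SE 0.072), and the median was -0.28. With a library left out, from 2 (USAG-1 overexpression replicate 2) to 46 (control replicate 3) were called lower. Beside these counts, 2.67% and 11.2% of all genes were called lower in the same fits. The median of the ribosomal protein genes without control replicate 3 was -0.20. All 10 genes of T and NK cells were lower, and their summed level was 76.1, 69.2 and 83.6 CPM in control and 10.5, 9 and 8.02 CPM in overexpressing libraries. GNLY held the most counts of them, and none of the 10 was at 0 in all libraries. B cell genes had adjusted p from 0.181 to 0.937 (edgeR quasi-likelihood test). Of 5 myeloid genes, LYZ was lower and CD68, which held the most counts, was higher. Of 4 fibroblast genes in the table LUM was higher and COL1A2 was at 0 in all 6 libraries, and of the endothelial genes PECAM1 was tested, with an adjusted p of 0.354 (edgeR). Of the proximal tubule genes GGT1 was higher, and of the epithelial genes PAX8 and CDH2 were. What part any of these had in the values of the subunit genes was not tested.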

How the data were processed

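Counts per gene were deposited by the authors in a table whose name speaks of FPKM but whose columns hold whole numbers, used here as counts. The submitters' processing notes name cutadapt 1.9, FastQC and hg38; the aligner and the counting tool are not given in the sources used here. The sample records describe poly(A) selection, a strand-marking library and a NovaSeq, whereas the series record speaks of depleting ribosomal RNA and of a HiSeq; which applies is not known, and whether the counting used strand is not given. Groups and replicate numbers come from the sample titles. Genes were filtered with filterByExpr, scaled with TMM and tested in edgeR 4.0.16 (R 4.3.3) by the quasi-likelihood test, with Benjamini-Hochberg adjustment over all 18188 genes tested and a threshold of 0.05. Alternatives were DESeq2 1.42.0, limma-voom (limma 3.58.1), other scalings and filters, a replicate block, and each library left out. The code was tested on simulated data. Members and lists were chosen with earlier results of these data known. All 38 genes are named; values in every library are given for called genes, the 2 with the smallest p in each complex and SDHA, SDHB, UQCRFS1, CYC1, COX4I1, ATP5F1A and ATP5F1B, and for COX5A, chosen after its values were seen. Gene lengths, promoters and proteins were not used here, so levels are not compared between genes. No replicate pair of a group agreed within sampling noise.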

Additional observations from a re-analysis of the deposited data

How the results depend on the processing

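No scaling, test or filter turned the sign of any median, and the 38 genes kept their count of 34 below 0 under each scaling; the median of all genes moved by less than 0.1 under each. Genes called lower among the 38 numbered 9 with DESeq2's Wald test and 3 without the filter on low counts, against 5. Over all genes, 1726 of 18188 were called lower with DESeq2's Wald test. The share was 2.67% without the filter, against 6.91%. With a library left out, from 1 to 7 of the 38 were called lower, beside 2.67% to 11.2% of all genes. The number of the 38 called higher ranged from 0 to 3. That of all genes called ranged from 1137 to 5091 against 2884, fits of fewer samples. The median log2 fold change then ranged from -0.19 to -0.081 for the 38 genes, from -0.14 to 0.034 for complex II, from -0.19 to -0.038 for complex III, from -0.28 to -0.16 for complex IV, from -0.21 to -0.085 for ATP synthase. SOSTDC1 ranged from 5.86 to 6.05 and was called each time.

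Without control replicate 3 the median of complex II changed sign, and so did 11 of the 38 genes, none of them called. With a library left out, these genes ranged as follows on the log2 scale, with control replicate 3 giving the value on the other side of 0: SDHA from -0.086 to 0.022, SDHB from -0.12 to 0.078, SDHC from -0.22 to 0.045, UQCRC1 from -0.23 to 0.053, UQCRFS1 from -0.20 to 0.036, UQCRB from -0.096 to 0.16, UQCR11 from -0.13 to 0.028, CYC1 from -0.13 to 0.086, ATP5F1A from -0.12 to 0.082, ATP5F1D from -0.20 to 0.16, ATP5MC2 from -0.17 to 0.10. UQCRB was also -0.033 without USAG-1 overexpression replicate 3. The cause was not tested.

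The sample titles link same-numbered replicates by number alone. The correlations of their deviations from the group means were 0.070, -0.054 and 0.037. With 3 libraries a group, these values cannot show whether the replicates were prepared in pairs. With a replicate block, 7 of the 38 genes were called lower, beside 5.66% of all genes, and 0 higher. In that fit 2381 genes were called in all. ATP5PF and ATP5ME were not called, and COX5B, COX6B1, COX7A2 and ATP5MF were. Centring on protein length was not run, as lengths were not used here. Centring on genes of like genomic span, chosen after seeing the data, gave medians of -0.10 for the 38 genes and -0.042 for complex III, with 30 of the 38 below 0; UQCR10, CYC1, COX8A and ATP5F1D lay above 0 there. Of the called genes, UQCRQ, COX7C and ATP5ME moved by more than 1 standard error toward 0, to -0.35, -0.20 and -0.16. Over all settings, single genes gave 513 values with the same direction and call or, for centring, within 1 standard error, 20 that lost a call, 15 that gained one, 12 that changed sign in a test and 10 that moved by more under centring, which has no test. Counts of the 38 genes were 548 or more in every library. The coefficient of variation expected from counting alone was 0.599% to 3.63% in control libraries, above the observed value for ATP5PF (2.5% against 1.33%) and near it for ATP5ME (3.63% against 3.66%); in USAG-1-overexpressing libraries it was above the observed value for SDHB, UQCR11 and ATP5MC1.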

Other observations

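The median coefficient of variation of the 38 genes was 12.1% in control libraries and 6.09% in USAG-1-overexpressing libraries, beside 8.32% and 4.28% over the 9742 genes at 10 CPM or more. With 3 libraries a group and 1 control apart from the others, the direction of 11 of the 38 genes rests on that library. Of the 38 genes, 7 overlap genes with counts above 10% of their own and 5 have pseudogenes with counts above 1% of their own, and shared reads cannot be told apart. RNA levels do not give the amounts or activity of the complexes, which were not analysed here.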
